A study of Mus musculus with 2 samples.

Results

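The Peg10 and Mest loci are a pair of imprinted gene neighbourhoods on mouse chromosome 6. They are described here by 8 genes: Calcr, Sgce, Peg10, Ppp1r9a and Asb4 at the Peg10 locus, and Mest, Copg2 and Klf14 at the Mest locus. The peaks of 5-hydroxymethylcytosine (5hmC) counted for them are those that overlap the annotated span of one of these genes or lie within 20 kb of it. This gave 59 of the 108395 peaks of the library and of its 5753 peaks on chromosome 6. The Peg10 locus held 47 of them and the Mest locus 12. The cells were prospermatogonia, the germ cells of the foetal testis, of genotype WT at E17.5 of embryonic development, pooled from several embryos to 30000 cells. In the 5hmC-Seal assay, glucose attached to 5hmC carries biotin, and streptavidin then captures the marked DNA fragments. The samples were 1 captured library and 1 input library made before the capture, both of batch 1 and both from 50 ng of DNA. Only the captured library has a peak list that was used here, so all values below describe 1 library without a replicate, and no test across samples was possible.

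Imprinted genes are expressed from the copy inherited from one parent. The choice rests on DNA methylation laid down in the germline of that parent, erased in primordial germ cells and set anew as oocytes and prospermatogonia mature. In the mouse, Peg10, Sgce and Mest are expressed from the paternal copy, and their control regions, at the shared start of Peg10 and Sgce and at the main start of Mest, gain methylation in oocytes and not in sperm. 5hmC is made from 5-methylcytosine by TET enzymes. Preference for the maternal copy has been described for Calcr, Ppp1r9a, Asb4, Copg2 and Klf14, for several of them in some tissues only. The control regions are not annotated in the gene table used here, so peaks are placed relative to gene spans and gene starts.

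The sequences upstream of 4 gene starts are printed because these starts differ in CpG content and in the distance to the nearest peak. They come from RefSeq (GRCm38.p6, the assembly of mm10), are written 5′ to 3′ on the strand of the gene up to the base before its start, and carry CpG dinucleotides in capitals. The upstream start of Mest (chr6:30733256-30733505, plus strand) had no peak within 1 kb. The downstream start of Mest (chr6:30737800-30738049, plus strand) is the more CpG-rich of the Mest starts, and a peak began 482 bp after it. Asb4 (chr6:5383136-5383385, plus strand) is CpG-poor and had a peak 566 bp before its start. Copg2 (chr6:30896795-30896980, minus strand, shortened where it met the neighbouring gene Tsga13) is CpG-rich, and its nearest peak was 12162 bp away.
Mest upstream start: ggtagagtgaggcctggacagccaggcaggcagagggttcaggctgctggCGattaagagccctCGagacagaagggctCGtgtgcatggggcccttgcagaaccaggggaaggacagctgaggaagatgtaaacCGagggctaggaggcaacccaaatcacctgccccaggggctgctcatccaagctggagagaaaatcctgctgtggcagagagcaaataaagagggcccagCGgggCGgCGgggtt
Mest downstream start: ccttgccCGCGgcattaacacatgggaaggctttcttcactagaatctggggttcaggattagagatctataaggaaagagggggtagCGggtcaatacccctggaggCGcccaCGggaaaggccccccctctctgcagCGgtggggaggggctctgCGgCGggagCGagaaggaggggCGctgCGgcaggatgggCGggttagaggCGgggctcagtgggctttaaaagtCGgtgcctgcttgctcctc
Asb4: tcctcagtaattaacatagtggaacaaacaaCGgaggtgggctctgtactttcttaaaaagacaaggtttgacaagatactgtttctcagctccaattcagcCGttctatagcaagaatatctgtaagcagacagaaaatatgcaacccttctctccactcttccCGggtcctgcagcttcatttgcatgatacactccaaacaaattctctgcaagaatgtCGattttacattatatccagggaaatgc
Copg2: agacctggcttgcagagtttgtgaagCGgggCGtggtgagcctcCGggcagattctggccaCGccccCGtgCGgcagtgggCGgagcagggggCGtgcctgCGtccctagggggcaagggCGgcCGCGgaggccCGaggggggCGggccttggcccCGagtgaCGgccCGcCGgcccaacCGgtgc
These stretches hold 7 CpGs at the upstream Mest start, 14 at the downstream Mest start, 4 at Asb4 and 19 in the 186 bases shown of Copg2. The motif TGCCGC, which the imprint-protecting zinc-finger protein ZFP57 binds when it is methylated, was searched on both strands. It occurred 2 times before the downstream start of Mest, 1 time before Copg2 and 0 times in the other 2 stretches. Of all 32851 promoters of 300 bases in the RefSeq table, 11.6% held the motif at least once and 1.53% at least 2 times. Those promoters are longer than the stretches printed and were not matched for CpG content, and the motif itself holds a CpG. Their median was 7 CpGs, against 17 in the 300-base promoter of the downstream Mest start. A motif match says only that these letters are there.

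A peak lay inside 7 of the 8 genes, against 61.6% of all 21775 protein-coding genes and 59.6% of those on chromosome 6. All 8 had a peak inside the span or within 20 kb, against 86.4% of protein-coding genes, so neither count sets the 8 genes apart. Klf14 counted only through a peak 19951 bp away, close to the limit. Peaks overlapped a gene span in 39 cases and lay only in the flanks in 20. The number per gene ran from 0 to 28, and Ppp1r9a alone held 28 of the 39. Peaks covered 5.62% of the joined spans of the 8 genes, and 3.56% without Ppp1r9a. The median covered share over the 8 genes was 4.21%, against 2.76% over 20556 autosomal protein-coding genes and 1.63% over 1120 on chromosome 6. Of the 8 genes, 5 lay above the autosomal median. Set against autosomal protein-coding genes of 0.5 to 2 times their own length, 4 of 8 were above the median, 2 of them above the upper quartile and 1 gene was below the lower quartile.

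**Figure D1:**
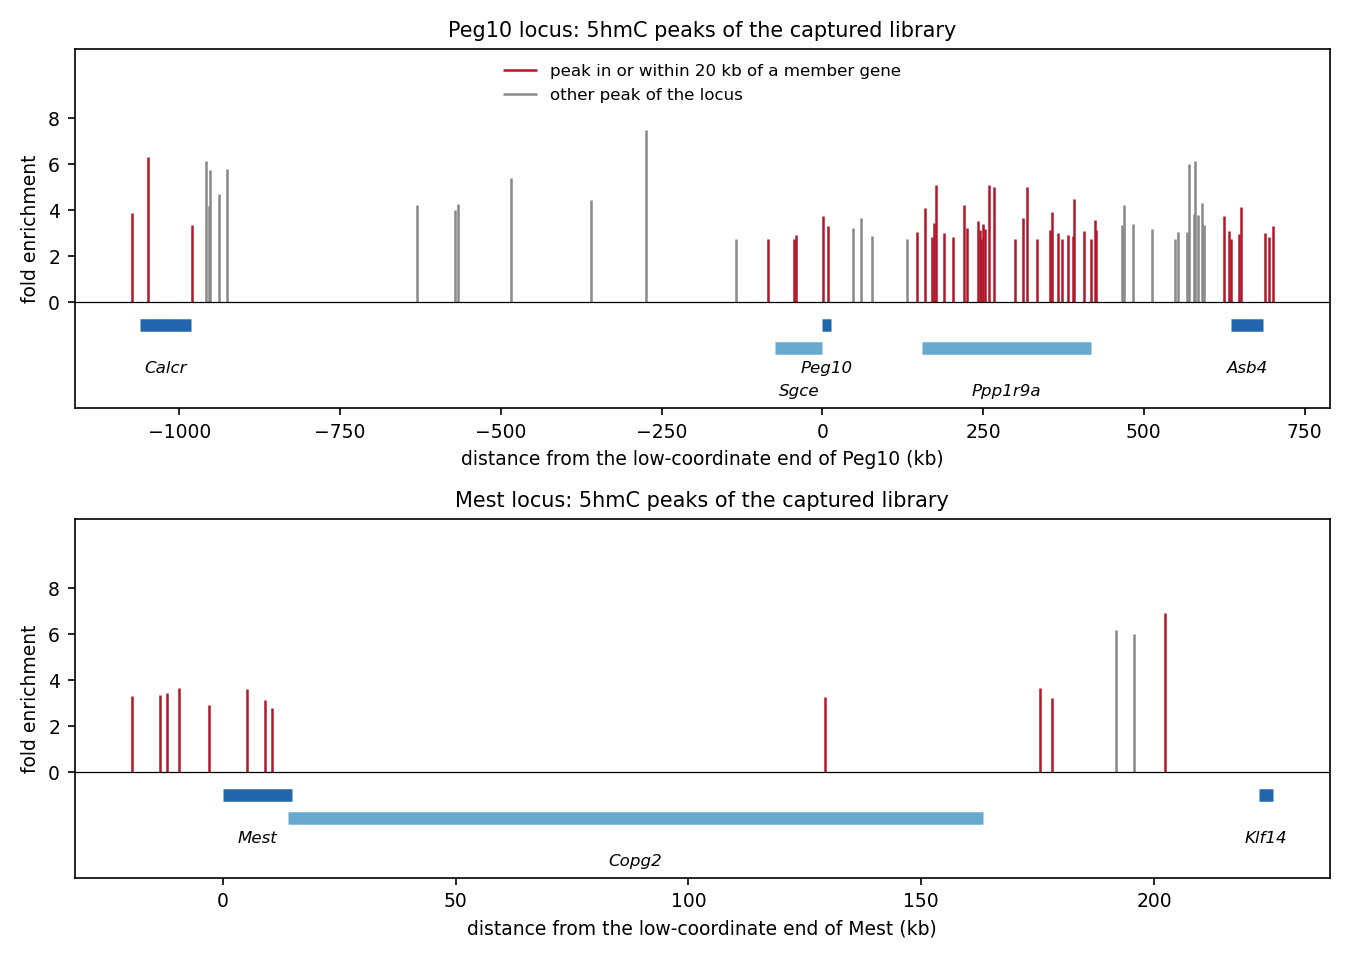
5hmC peaks of the captured library along the Peg10 locus (upper panel) and the Mest locus (lower panel). Each vertical line is a peak at its midpoint, with the authors' fold enrichment as its height against the distance in kb from the low-coordinate end of Peg10 or Mest, and blue bars are the spans of the 8 genes. Peaks crowd over Ppp1r9a, which holds 28, and are nearly absent over Copg2, which holds 1.

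**Figure D2:**
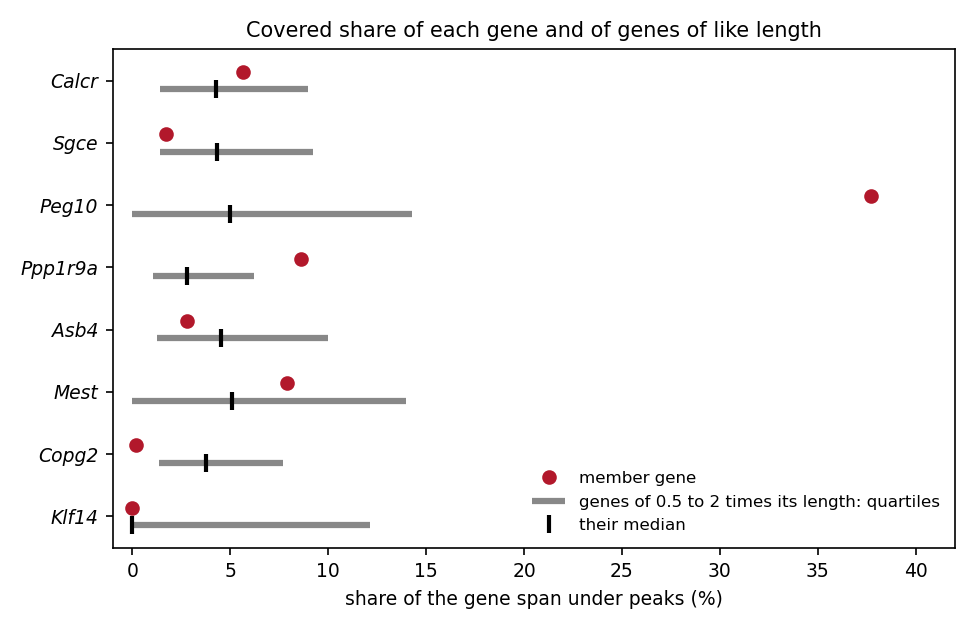
Share of each gene span under peaks (red points) and the quartile range (grey bar) and median (black tick) of the same share over autosomal protein-coding genes of 0.5 to 2 times the length. Peg10, at 37.7%, stands far right of its range, and Copg2, at 0.192%, lies below its range.

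Peg10 encodes a protein derived from a retrotransposon and needed to form the placenta. It had the highest covered share of the 8 genes. Its span, chr6:4747306-4760517, is 13.2 kb long and held 2 peaks, which covered 37.7% of it. The covered share was lower in 97.0% of autosomal protein-coding genes and in 96.6% of the 7111 of like length, whose median was 4.99%. The first peak, chr6:4747422-4749321, was 1900 bp wide with a fold enrichment of 3.75 and a −log10 q of 2.45. The second, chr6:4754186-4757268, was 3083 bp wide, with a fold of 3.31 and a −log10 q of 1.85. Both were thus broad and of ordinary height. They were the fifth and the third in width among the 59 peaks, and the median fold of all 108395 peaks was 3.35. No other peak was listed within 20 kb of Peg10 on either side.

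Sgce encodes epsilon-sarcoglycan, a membrane protein whose loss of function causes myoclonus-dystonia in humans. It is transcribed away from Peg10, and the spans of both genes stand 101 bp apart. The first Peg10 peak began 116 bp inside Peg10 and 218 bp past the end of Sgce, so the same peak lay within 1 kb of a span end of both. Inside Sgce (chr6:4674350-4747204, 72.9 kb) there were 2 weak peaks, of fold 2.76 and 2.91, which covered 1.73% of the gene. A lower covered share was found in 28.4% of 4729 genes of like length. No peak was listed in the 41.1 kb of Sgce nearest to Peg10. The pair of neighbours thus differed in covered share, at 37.7% for Peg10 and 1.73% for Sgce.

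Ppp1r9a encodes neurabin, a scaffold that brings protein phosphatase 1 to the actin cytoskeleton. It was the most densely marked of the long genes. Its span, chr6:4902872-5165661, is 263 kb long and held 28 peaks, or 10.7 per 100 kb. Among 1439 genes of like length the median was 3.85 per 100 kb, and 86.0% were less dense. The peaks covered 8.62% of the gene, against a median of 2.81% in those genes. They spread over its whole length, with 13 midpoints in the 100 kb at the low-coordinate end, where transcription starts, 7 in the next 100 kb and 8 in the remaining 62.8 kb. Their median fold was 3.17, with a range from 2.75 to 5.12. Of the 28, 10 had a fold under 3, and the lower quartile of fold over all peaks of the library was 2.995. The highest fold, 5.12, belonged to a broad peak of 3821 bp at chr6:4922827-4926647, which also had the highest −log10 q of the gene, 5.25.

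The other high peaks of Ppp1r9a were narrow. A peak of 253 bp at chr6:5006035-5006287 had a fold of 5.12. A peak of 357 bp at chr6:5014644-5015000 had a fold of 5.03. Another of 357 bp, at chr6:5064809-5065165, had a fold of 5.01. These narrow peaks and the broad one at chr6:4922827-4926647 therefore reached nearly the same fold. Neither listed start of Ppp1r9a had a peak within 1 kb, and the nearest peak lay 4150 bp from one and 4486 bp from the other. The longest stretch of the gene without a peak was 31.0 kb.

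Asb4 encodes an ankyrin-repeat protein that serves as a substrate adaptor of a ubiquitin ligase. The gene (chr6:5383386-5433022, 49.6 kb) held 2 peaks that covered 2.79% of it, and 38.5% of 5969 genes of like length were covered less. The peaks had folds of 2.97 and 4.12. A further 6 peaks lay only in its 20 kb flanks, the most for any of the 8 genes besides Copg2, which also had 6. The one nearest to its start, chr6:5382286-5382820, was among the weakest in the library, with a fold of 2.77 and a −log10 q of 1.02. Only 5.71% of all peaks had a lower fold.

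Calcr, the gene of the calcitonin receptor, carried 1 peak, and that peak was the widest of the 59. It spanned 4453 bp at chr6:3695824-3700276 with a fold of 6.32 and a −log10 q of 7.42. Of all peaks in the library, 94.7% had a lower fold. The peak covered 5.63% of the gene (chr6:3685678-3764713, 79.0 kb), against a median of 4.25% in 4502 genes of like length. By number of peaks Calcr was sparse, with 1.27 per 100 kb against their median of 5.86. No peak was listed in the 64.4 kb between it and the high-coordinate end, where the gene starts, and its starts had none within 1 kb. The flanks added a peak of fold 3.87 and one of fold 3.36. Strong peaks followed just outside the 20 kb limit, the nearest, of fold 6.13 and 4061 bp, at 21547 bp from the gene.

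At the other locus, Mest, which encodes a protein of the alpha/beta hydrolase fold family, was moderately covered. Its span, chr6:30733506-30748466, is 15.0 kb long and held 3 peaks covering 7.92% of it, with 59.4% of 7337 genes of like length covered less. All 3 lay past the downstream start printed above. The first, chr6:30738532-30738985, had a fold of 3.61 and a −log10 q of 2.20. The second, chr6:30742469-30742912, had a fold of 3.14. The third, chr6:30743963-30744249, had a fold of 2.77, at the weak end of the list. The first 5026 bp of the gene, from the upstream start past the downstream start, had no peak. The microRNA gene Mir335, which lies inside Mest, was not overlapped by a peak, and its nearest one was 1073 bp away. A further 5 peaks, of fold 2.91 to 3.65, lay in the 20 kb before the gene.

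Copg2, which encodes a gamma subunit of the COPI vesicle coat and overlaps the end of Mest by 913 bp, was the least covered of the 7 genes with a peak. Its span, chr6:30747554-30896815, is 149 kb long and held a single peak of 287 bp, chr6:30862614-30862900, with a fold of 3.27 and a −log10 q of 1.70. That is 0.67 peaks per 100 kb and 0.192% of the gene. Among 2687 genes of like length the medians were 4.98 peaks per 100 kb and 3.74%, and 7.15% of them were covered less, including 6.25% with no peak at all. From the last Mest peak to the Copg2 peak ran 118 kb without a peak, longer than 97.0% of the 106015 gaps between neighbouring peaks on autosomes, whose median was 8.35 kb. Copg2 and Ppp1r9a, the longest genes of the 8, thus differed in peak density, at 0.67 and 10.7 peaks per 100 kb.

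Klf14, an intronless gene of a zinc-finger transcription factor, held 0 peaks in its 2.97 kb (chr6:30956021-30958990). This is the common case for its size, since 65.4% of 3217 genes of like length had none. It entered through 1 flanking peak, chr6:30935636-30936070, 435 bp wide and 19951 bp from the gene. That peak had the highest fold of all 59, 6.91, and a −log10 q of 9.15. A lower fold was found in 96.7% of all peaks. It counts only by its edge. When the peak midpoint had to lie within 20 kb, it dropped out, 58 peaks were left and Klf14 had no peak. Peaks of fold 5.98 and 6.19 lay between Copg2 and Klf14 but beyond 20 kb of both, the first 26602 bp from Klf14 and the second 28151 bp from Copg2.

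At gene starts, a peak within 1 kb was found for 2 of the 5 genes whose starts the RefSeq promoter table gives, Mest and Asb4, and not for Calcr, Ppp1r9a or Copg2. Among 17491 protein-coding genes in that table the share was 10.1%. For Peg10, Sgce and Klf14 both ends of the span were used, and 2 of 3 had a peak within 1 kb of an end, against 26.6% of protein-coding genes. Those 2 genes, Peg10 and Sgce, share the same peak. Neither count held at every setting: with a window of 250 bp, 0 of the 5 genes had a start peak, and when the peak midpoint had to lie within 1 kb, 0 of the 3 had an end peak. These counts rest on 3 peaks, the shared one and those of Mest and Asb4, and all 3 had a −log10 q under 3.

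The members without a start peak included those with the most CpGs. In the library as a whole, a peak within 1 kb was most frequent at autosomal starts with 5 to 9 CpGs in the 300-base promoter, at 26.7% (exact 95% interval 25.5 to 27.8). It was least frequent at starts with 20 or more CpGs, at 3.47% (3.09 to 3.89). The promoter window itself was overlapped in 16.4% and 0.412% of these classes. The most CpG-rich starts of Ppp1r9a, Calcr and Copg2 had 48, 29 and 25 CpGs and no peak within 1 kb. The Asb4 start with a peak had 6 CpGs. The other Asb4 start and the upstream Mest start each had 8 CpGs, in the class with the highest share, and no peak within 1 kb. The remaining starts of Calcr and Ppp1r9a, with 4 and 10 CpGs, had none either. The downstream start of Mest had 17, in the class of 10 to 19 CpGs, where 12.0% (11.1 to 12.9) had a peak.

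**Figure D3:**
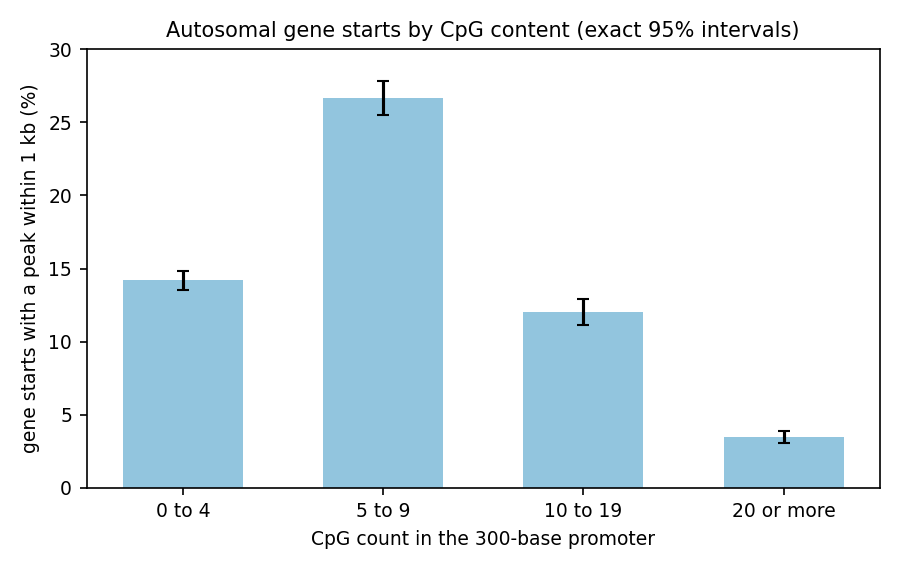
Share of autosomal gene starts with a peak within 1 kb, by the number of CpGs in the 300-base promoter; bars are shares and whiskers exact 95% intervals. The share is highest, 26.7%, at 5 to 9 CpGs and lowest, 3.47%, at 20 or more.

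By height, the peaks inside the 8 genes or within 20 kb of them were ordinary to weak. Their median fold was 3.24, with quartiles of 2.92 and 3.66 and a range from 2.75 to 6.91, against a median of 3.36 in the other 5694 peaks of chromosome 6, with quartiles of 2.99 and 4.12. The median was 3.15 over the 47 of these peaks at the Peg10 locus and 3.34 over the 12 at the Mest locus. Over all 76 and 14 peaks of the loci, also those beyond 20 kb of a gene, the medians were 3.36 and 3.39. Of those 76 and 14 peaks, 9 and 3 had a −log10 q of 5 or more. Peaks with a −log10 q of 5 or more made up 3 of 59 (5.08%, exact 95% interval 1.06 to 14.1), against 11.9% of all peaks. These 3 were the broad peaks in Calcr and Ppp1r9a and the narrow one near Klf14. At a −log10 q of 3 or more there were 8 of 59 (13.6%, 6.04 to 25.0), against 24.2% of all. A q of 0.05 or less was reached by 42 of 59 (71.2%, 57.9 to 82.2), against 77.1% of all. The intervals cover counting error only, and neighbouring peaks are not independent of each other. These shares hold for the 20 kb limit, and those for a wider limit are not given here. Peaks between 20 and 50 kb from the genes ranged in fold from 2.75 to 7.09. The highest of them lay past Asb4 and had a −log10 q of 9.64. The median width of the 59 peaks was 501 bp, against 622 bp in the rest of chromosome 6. Of the 59, 12 were wider than 1 kb, and the share of all peaks above that width is not given here.

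**Figure D4:**
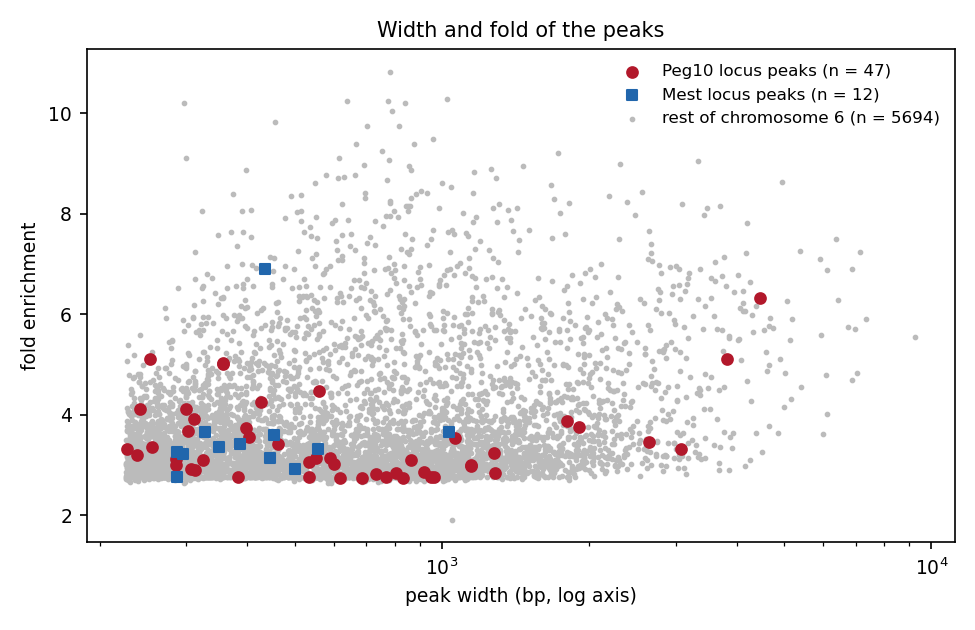
Fold enrichment against width (log axis) for the 47 peaks in or within 20 kb of the Peg10 locus genes (red circles) and the 12 of the Mest locus genes (blue squares). Grey points are the other 5694 peaks of chromosome 6, among them 29 and 2 peaks of the loci beyond 20 kb of the 8 genes. The 59 peaks sit within the bulk of the cloud, with a median fold of 3.24 against 3.36 for the grey points, and the highest are the Klf14 flank peak at 6.91 and the broad Calcr peak at 6.32.

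Between the genes, density varied more than either locus as a whole did. From 20 kb before Calcr to 20 kb past Asb4, 1.79 Mb held 76 peaks, or 42.5 per Mb (exact Poisson 95% interval 33.5 to 53.2). From 20 kb before Mest to 20 kb past Klf14, 0.265 Mb held 14 peaks, or 52.7 per Mb (28.8 to 88.5). Chromosome 6 had 39.3 per Mb and the 19 autosomes a median of 44.2. Inside the Peg10 locus, the 0.87 Mb between the Calcr and Sgce flanks had 13.8 per Mb (7.13 to 24.1), while the 0.759 Mb from Sgce to Asb4 had 75.1 (56.9 to 97.3). The sparse stretch had the higher peaks, with a median fold of 4.57 over its 12 peaks, against 3.22 over the 57 peaks of the dense stretch. Of these, 5 of 12 and 3 of 57 had a −log10 q of 5 or more.

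The other genes of both domains were counted from a list of 19. Of these 19, 17 were found in the gene table, and Copg2os2 and Mestit1 were not analysed here. Of the 17, 12 had a peak inside the span, and these 12 are protein-coding. The 17 also include the microRNA gene Mir335, which had none. Among all protein-coding genes, 61.6% had a peak inside the span. At the Peg10 locus the 4 genes without one, Tfpi2, Gngt1, Gng11 and Bet1, all lie in the sparse stretch between the Calcr and Sgce flanks. In the same stretch Casd1, a sialic acid acetyltransferase gene, had 1 weak peak of fold 2.76. The paraoxonase genes Pon1, Pon2 and Pon3, between Ppp1r9a and Asb4, had 2, 1 and 2 peaks, with 3.69%, 0.919% and 1.88% covered. Beyond Asb4, Pdk4, a kinase gene of glucose metabolism, had 1 peak, the dynein subunit gene Dync1i1 had 13 in 302 kb, and Slc25a13, the gene of a mitochondrial aspartate-glutamate carrier, had 17 in 176 kb. Of these 11 genes, 0 had a peak at a start or end, while 10.1% of protein-coding genes had one within 1 kb of a start.

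On the Mest side, the carboxypeptidase genes Cpa1, Cpa4 and Cpa5 and the centrosomal gene Cep41 that precede Mest were dense. The 142 kb from Cpa4 to Cep41 held 20 peaks, or 141 per Mb (85.9 to 217), all with a −log10 q under 5 and with a median fold of 3.13. Cpa5 was covered to 19.4%, Cep41 to 15.9%, Cpa4 to 13.9% and Cpa1 to 10.1%. Of the 6 genes found on this side, Cpa1 had a peak at a start or end. Over both sides this was 1 of 17 genes, too few to set apart from the 10.1% of protein-coding genes. Tsga13, a testis-expressed gene next to Copg2, had 2 peaks and 2.53% covered. The covered share thus ran from 15.9% in Cep41, through 7.92% in the adjacent Mest, to 0.192% in Copg2, which overlaps Mest.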

How the data were processed

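The measured sample is the captured library, for which the authors' deposited list gives 108395 broad peaks. MACS2 2.1.0, Bowtie2 2.5.0, Trim Galore, deepTools 3.5.1, bedtools 2.27.1 and SAMtools 1.16.1 are named, per the submitters' processing notes, with build mm10. How they were set, and whether the input library served as control, is not stated there. Each peak has a deposited fold enrichment (a ratio to the caller's background), −log10 p, −log10 q and score; the score equalled 10 times the −log10 q, rounded down, for 108385 peaks. The lowest −log10 q was 1.01. Without read counts the depth is unknown, and the fold of a peak has no error.

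Gene spans came from RefSeq GRCm38.p6 (49599 genes, after leaving out those in the first 3 Mb of chromosomes other than Y); exons and introns were not annotated. Gene starts and promoters came from the RefSeq promoter table, and for Peg10, Sgce and Klf14 the 1 kb around both span ends was used. Overlap meant at least 1 shared bp, and 1 peak could count for several genes. Covered shares, densities and percentiles were computed in Python 3.11.15 with numpy 2.4.6, pandas 2.3.3 and scipy 1.17.1, after a check on simulated intervals. Intervals are exact Clopper-Pearson or Poisson at 95%. Alternatives were the peak threshold, merging, the 20 kb limit, midpoints, window sizes and locus flanks. The genes, lists and alternatives were chosen with earlier results of these data known. All 8 genes are named, with the listed neighbours that have a peak, the peaks in Peg10 and Mest or at a gene start, the 5 highest, the 3 widest and those with a −log10 q of at least 5. One further neighbour, beside the 19 counted, is not reported here.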

Additional observations from a re-analysis of the deposited data

How the results depend on the processing

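The peak threshold had the widest effect. When only peaks with a −log10 q of at least 3 were kept, 8 were left, 2 genes had a peak inside, 1.59% of the spans was covered, the median fold was 5.07, the density was 11.7 per Mb at the Peg10 locus and 11.3 at the Mest locus, and 3 neighbours had a peak. At a limit of 5 these values were 3 peaks, 2 genes, 1.29%, 6.32, 5.04 per Mb, 11.3 per Mb and 1 neighbour. Of all peaks, 24.2% and 11.9% pass these limits. The share of all protein-coding genes with a peak at these limits is not given, so the gene counts have no background here. Peg10, Mest, Copg2, Asb4 and Sgce held 0 peaks at either threshold, so their contrasts rest on weak calls. Merging peaks within 1 kb changed none of these values. Peaks inside a span only numbered 39 with a median fold of 3.19. A distance limit of 50 kb gave 86 peaks, and peak midpoints within 20 kb gave 58. Without flanks the loci had 41.2 and 39.9 peaks per Mb. Leaving out Ppp1r9a, chosen after its values were seen, gave 28 peaks, 3.56% covered and a median fold of 3.31. Start or end peaks were found for 4 genes with a window of 1 kb, 2 with 250 bp, 5 with 2 kb, and 2 by peak midpoint. These counts join start windows for 5 genes with span-end windows for 3. Shares over all genes are given only for the 1 kb window, so the other settings have no background here. No paired analysis was possible because the captured library has no replicate.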

Other observations

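Non-coding genes that overlap the 8 spans differed in marking. The microRNA genes Mir653 and Mir489 lie in the peak-free part of Calcr, 21025 and 21621 bp from the nearest peak, the broad one of fold 6.32. The lncRNA gene Gm33576, which overlaps the end of Calcr and runs on past it, held 4 peaks that covered 14.4% of it. Inside Ppp1r9a the lncRNA gene Gm52886 was overlapped by 1 peak (7.79% covered) and Gm46949 by 0. Gm38781, inside Copg2, had 0, and its nearest peak was 15167 bp away. Past Klf14 the next peak followed after a gap of 66.0 kb from the strong flanking peak, longer than 92.8% of autosomal gaps.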
